A study of Mus musculus with 9 samples.

Results

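The regions described here were open in basal and in ER- luminal cells of the mouse mammary gland and closed in ER+ luminal cells, at puberty and again in adults. They were chosen from the deposited ATAC-seq table on L, the log2 of the normalised signal plus 1. At both stages L of ER+ luminal cells had to lie at least 2 units (4-fold) below L of basal and of ER- luminal cells, whose signal had to be at least 20. The rule held for 1659 of 124860 regions (1.33%). The pregnancy libraries took no part in the choice and serve as held-out values.

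ATAC-seq marks open chromatin, since the Tn5 transposase cuts and tags DNA where nucleosomes leave it exposed. Basal cells, ER+ luminal cells and ER- luminal cells were sorted from mammary glands at puberty, in adulthood and in mid pregnancy, with 1 library for each of the 9 combinations. All 9 groups share the genotype ERrtTA/TetOCre/rosaYFP. By its name this joins a tetracycline-controlled activator tied to ER, a Cre under its control and a YFP reporter in the Rosa locus. Whether the inducer was given, the promoter's exact form, the sorting gates, the age in weeks and the number of pooled mice were not given in the sources used here. As the files name regions by running number, without positions or genes, cell type markers could not be read and no sequence is printed.

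The mammary duct has an outer layer of basal cells, which contract and rest on the basement membrane, and an inner layer of luminal cells. ER+ luminal cells sense oestrogen and signal to their neighbours. ER- luminal cells hold the progenitors that expand into milk-secreting alveoli in pregnancy. Distal open regions are often enhancers, and the set open in a cell type is closely tied to its identity.

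Depth in regions ran from 2186941 to 11328189 reads, recovered from the step between values in each library. The pregnancy libraries were the shallowest, at 2186941 reads (basal), 3418164 (ER- luminal) and 2641254 (ER+ luminal). One read is worth 2.20, 1.52 and 1.70 signal units there and 0.526 to 0.855 units in the other 6 libraries. The ER+ luminal pregnancy library also stood apart from the earlier libraries of its own type. The 5204 regions at least 4-fold above both other types in ER+ luminal cells at puberty and adult had a median ER+ signal of 73.6 and 71.0 there and 23.7 in pregnancy. Every pregnancy value of ER+ luminal cells below rests on that 1 library, and the part that its makeup plays in them was not tested.

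At the stages used for the choice the members were well-read open regions in basal and ER- luminal cells. Their median signal in basal cells was 59.4 at puberty and 76.6 in adults, against 14.2 and 15.0 over all regions. In ER- luminal cells it was 50.9 and 57.9, against 13.6 and 14.9 over all regions. In ER+ luminal cells it was 5.78 and 4.28, or 11 and 5 reads. These values chose the members and are given as a description only. ER+ luminal signal at the members was low but seldom 0. At puberty 2 members had no ER+ read (0.121%, against 2.81% of all regions). In adults 56 had none (3.38%, against 3.01% of all regions), and 1 had none at both stages. A library with no read allows up to 3 reads, worth 1.58 units at puberty and 2.57 units in adults, and floors and intervals here cover counting error only.

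Members lay close to the limit in many cases, with a median gap of 2.65 log2 units at puberty and 3.14 in adults. The gap is the distance of ER+ luminal cells below the lower of the other types. Just inside the threshold were merged12539 and merged41732, whose smallest gap at the 2 stages was 2.0005 and 2.0007. Just outside were merged18301 and merged104931, at 1.9991 and 1.9990. The limit thus cuts through a continuous range of gaps.

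The brightest members show what closure means on this scale. Region merged38885 had a basal signal of 574, 775 and 543, in the order puberty, adult and pregnancy. In ER- luminal cells it had 953, 630 and 396. In ER+ luminal cells it had 139, 54.7 and 107, so it was not shut but lay several-fold lower at each stage. Region merged56389 had 325, 418 and 207 in basal and 392, 461 and 293 in ER- luminal cells. ER+ luminal cells had 78.3, 91.5 and 185 there. In pregnancy its ER+ signal came close to the basal signal of 207, a ratio of basal to ER+ of 1.12 with an exact 95% counting interval of 0.840 to 1.49.

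**Figure D1:**
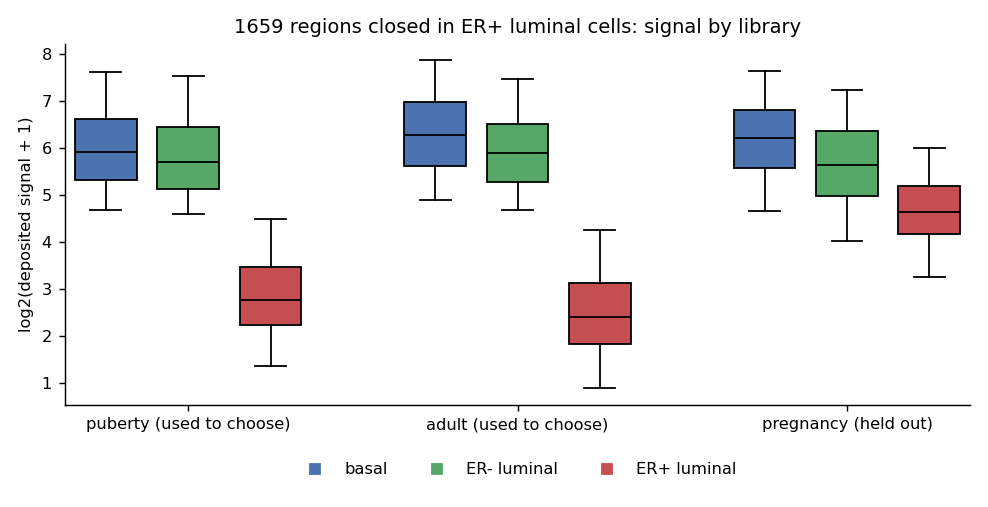
Signal of the 1659 members as log2(deposited signal + 1) in each of the 9 libraries, grouped by stage and coloured by cell type. Boxes span the quartiles with the median as a line, and whiskers reach the 5th and 95th percentiles of regions. Basal and ER- luminal boxes stay at similar heights, while the ER+ luminal median is 2.76 at puberty, 2.40 in adults and 4.63 in pregnancy.

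In the held-out pregnancy libraries the members were still lowest in ER+ luminal cells as a rule, but the gap was much smaller. ER+ luminal signal lay below both other types at 1465 of 1659 members (88.3%), against 34% of all regions. It lay at least 2-fold below both at 738 members (44.5%), against 8.08% of all regions. At least 4-fold, the margin of the rule, was reached by 95 members (5.73%), against 1.48% of all regions. The median gap was 0.90, with quartiles of 0.41 and 1.34, against -0.38 over all regions. With 1 library per cell type these counts have no replicate check and no p-value.

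The smaller gap went with higher values in ER+ luminal cells rather than with loss in the other types. Median ER+ luminal signal at the members was 23.7 in pregnancy, or 14 reads, with quartiles of 17.0 and 35.6. Median basal signal was 72.6 and median ER- luminal signal 48.5 in pregnancy. The ER+ signal was a median of 13.8% of the lower other type at puberty, 9.40% in adults and 52.5% in pregnancy. ER+ luminal signal of 20 or more was reached by 96 members at puberty (5.79%), 55 in adults (3.32%) and 1092 in pregnancy (65.8%). Over all regions the shares were 43.1%, 46.5% and 44.6%. The puberty and adult counts are held low by the choice of members.

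Read by region, 1613 members (97.2%) had more ER+ luminal signal in pregnancy than at either earlier stage, against 38.9% of all regions. The excess was at least 2-fold at 1286 members (77.5%, against 18.8% of all regions) and at least 4-fold at 513 (30.9%, against 6.85%). From adult to pregnancy members changed by a median log2 of 2.11 (ER+ luminal), -0.25 (ER- luminal) and -0.16 (basal). From puberty to pregnancy the medians were 1.79, -0.15 and 0.17. Members had to be low in ER+ luminal cells before pregnancy, so part of the ER+ difference is set by the choice. No test separates the cell types here, since each median comes from 1 library per stage.

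The rule was also applied at 1 stage, with the other stages held out. At puberty alone the rule chose 2327 regions, and 1775 of them (76.3%) were at least 4-fold below both other types in adults as well, against 6.96% of all regions. In pregnancy 108 of the same regions (4.64%) were. Their median ER+ signal was 5.13 in adults and 23.7 in pregnancy. In adults alone the rule chose 4158 regions, of which 2041 (49.1%) kept the 4-fold margin at puberty, against 4.95% of all regions, and 156 (3.75%) kept it in pregnancy. By either choice a larger share kept the margin between puberty and adulthood than in pregnancy, a stage at which it was also rarer over all regions (1.48%).

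Depth and the range of values differ between the libraries, and the order of these shares was the same when either was made equal. With reads thinned to the shallowest library, regions chosen at puberty kept the 4-fold margin in 64.0% of cases in adults and 3.50% in pregnancy. After quantile normalization the shares were 75.0% and 8.90%. For the regions chosen in adults they were 44.4% at puberty and 3.48% in pregnancy at equal depth, and 42.8% and 8.05% after quantile normalization.

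**Figure D2:**
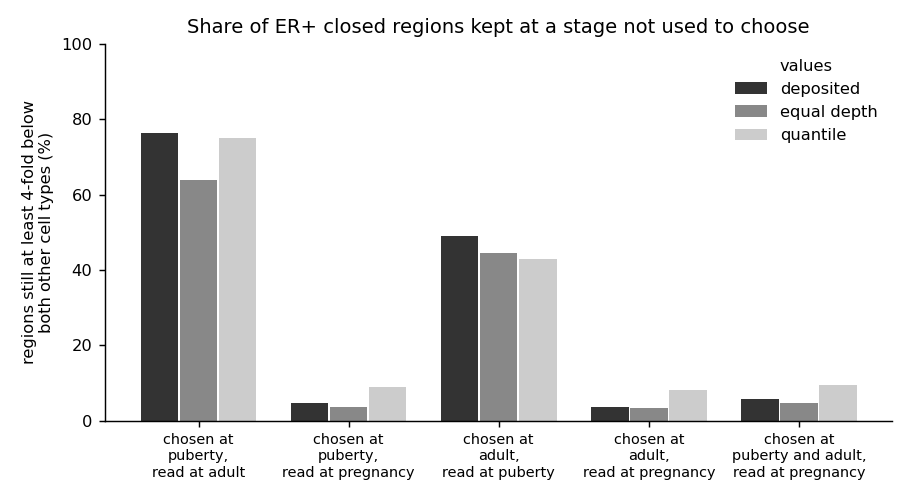
Share of regions, in percent, whose ER+ luminal signal was still at least 4-fold below both other types at a stage that was not used to choose them. Bars stand for the deposited values, reads thinned to equal depth and quantile-normalised values, each from single libraries. Bars read in adults or at puberty reach 42.8% to 76.3%, and bars read in pregnancy stay at or under 9.45%.

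Turned around, the rule applied to the pregnancy libraries alone chose 352 regions. Of these, 91 were members, which is 25.9% of the 352 regions and 5.49% of the 1659 members. At least 4-fold lower ER+ signal than in both other types was seen at 53.1% of the 352 in adults and at 41.2% at puberty, against 6.96% and 4.95% of all regions. At equal depth these shares were 44.6% and 34.4% of 457 regions, and after quantile normalization 38.6% and 24.7% of 961. Read in this direction the shares were well above the 4.64% and 3.75% of the regions chosen at puberty or in adults, though over far fewer regions. Where basal and ER- luminal signal was at least 20 in pregnancy, which held for 1426 members, 6.38% of members kept the 4-fold margin. Among all 39829 regions with such signal 0.884% did. Of these 39829 regions 1426 were members, and of the 352 closed in pregnant ER+ luminal cells 91 were. Members thus met the margin more often than all regions with such signal, although few of them did.

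**Figure D3:**
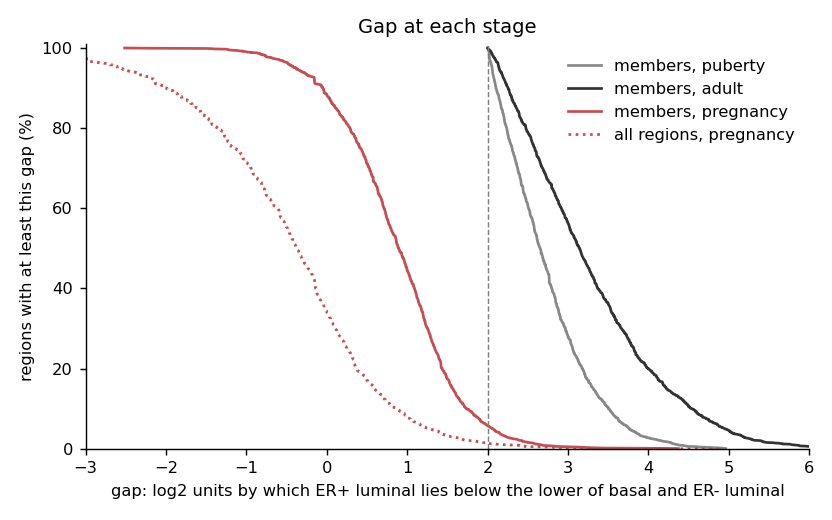
Percent of regions (vertical axis) whose gap is at least the value on the horizontal axis, in log2 units of signal plus 1. The gap is the distance of ER+ luminal cells below the lower of basal and ER- luminal cells, and the dashed line is the margin of 2. The puberty and adult curves start at the margin by the choice of members, while the pregnancy curve has its median at 0.90 and the dotted curve of all regions at -0.38.

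In pregnancy ER+ luminal cells lay nearer to ER- luminal than to basal cells at the members, as they had in adults. In pregnancy the median log2 difference of ER+ luminal cells was -1.03 from ER- luminal and -1.49 from basal cells. In adults the differences were -3.29 and -3.71. At least 4-fold lower signal than in ER- luminal cells was seen at 7.66% of members, and than in basal cells at 25.7%, against 3.07% and 5.72% of all regions. Over members, which share their libraries and depth, ER+ luminal L in pregnancy had a Pearson r of 0.68 with ER- luminal and 0.58 with basal L of that stage. ER+ luminal L in pregnancy had an r of 0.55 with the mean ER+ L of the earlier stages. At puberty ER+ luminal L had an r of 0.79 with ER- luminal and 0.65 with basal L. In adults these were 0.55 and 0.49, and ER+ luminal L at puberty and in adults had an r of 0.60. At puberty and in adults the rule holds ER+ L below that of the other types, so these r values are partly set by the choice. They are given as a description and are no like comparison for the held-out r of pregnancy.

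Single members spanned both extremes. Region merged52117 had a basal signal of 39.6, 33.9 and 83.6 and an ER- luminal signal of 25.8, 32.7 and 44.0, in the order puberty, adult and pregnancy. Its ER+ luminal signal was 5.26, 3.42 and 1.70, the last from 1 read. It had the largest gap kept in pregnancy, with an ER- to ER+ ratio of 25.9 and an exact 95% counting interval of 4.30 to 1060. Region merged51205 was next, with an ER+ luminal signal of 4.21, 2.57 and 1.70 at the 3 stages. Its basal signal was 41.2, 38.7 and 44.0 and its ER- luminal signal 20.1, 23.8 and 28.8, so the ER+ values lay below all others. The pregnancy ratio to ER- luminal cells was 17.0, with an interval of 2.70 to 706.

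At the other extreme, merged120548 had no ER+ luminal read at puberty or in adults and a signal of 20.3 in pregnancy, from 12 reads. Its basal signal was 41.2, 46.6 and 41.8 and its ER- luminal signal 30.1, 49.8 and 34.9, so both stayed at or above 30.1 at every stage. Region merged54393 had an ER+ luminal signal of 0.526 and 0.855, 1 read each, and 35.6 in pregnancy, from 21 reads. Its basal signal was 24.5, 26.0 and 66.0 and its ER- luminal signal 48.7, 69.8 and 62.2. In pregnancy the ER- luminal signal of this region was 1.75 times the ER+ signal, with an interval of 1.01 to 3.11. In pregnancy ER+ luminal cells did not lie below both other types at 194 members (11.7%, against 66.0% of all regions). They had the highest signal of the 3 types at 19 members (1.15%), for which no share of all regions was taken.

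Members with less ER+ signal before pregnancy had a smaller median gap in pregnancy but kept the 4-fold margin more often. They were split into 4 groups of about equal size by their ER+ signal before pregnancy, a value that the rule used. The lowest group had median ER+ values of 2.63 at puberty, 1.71 in adult and 18.6 in pregnant glands. The highest group had 14.7, 11.1 and 40.7. The median gap in pregnancy was 0.79 in the lowest and 1.04 in the highest group, and 6.97% and 3.86% kept the 4-fold margin. The same was seen in a split by the lowest signal in basal and ER- luminal cells before pregnancy, which the rule used too. This split is not independent of the first. Median basal signal at puberty was 40.4 and 113 in the lowest and highest ER+ groups, and 33.6 and 120 in the dimmest and brightest groups. The part that counting error plays in the dimmer groups was not tested. The dimmest group had a median gap of 0.67 and the brightest 1.14, and 6.49% and 4.58% kept the 4-fold margin.

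Basal and ER- luminal cells were compared at the members, a difference on which the rule puts no direction. More members were called higher in basal than in ER- luminal cells, but whether their share exceeded that of all regions depended on the fit. The model was fitted on the 6 basal and ER- luminal libraries over all 124860 regions, with stage as a block. Limma called 354 members (21.3%) higher in basal cells at a Benjamini-Hochberg adjusted p under 0.05, against 12.5% of all regions. It called 52 members (3.13%) higher in ER- luminal cells, against 9.15% of all regions. The median log2 difference, ER- luminal minus basal, was -0.32 over members and -0.01 over all regions. Among the called members it was -1.20 and 1.02. The rule asks for open chromatin in both types, so regions shut in either are not among the members.

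With 1 library a group, the error in this fit is how far libraries lie from the sum of a cell type term and a stage term. It is no spread between animals, and the prior pools it over regions. The 406 calls became 154 without the basal adult and 168 without the ER- luminal adult library. Members called higher in basal cells were then 8.74% and 9.64%, against 6.08% and 6.91% of all regions. The fit on all 9 libraries, into which the ER+ luminal values that chose the members enter, gave 125 calls. There 7.11% of members were called higher in basal cells, against 8.28% of all regions. Without a variance trend 75 were called, and 4.34% of members were higher in basal cells, against 7.3% of all regions. The excess over all regions seen in the first fit was thus turned in these last fits. The fit without a variance trend used the same 6 libraries. Calls higher in basal cells were the larger group in each fit.

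Region merged70510 leaned furthest to basal cells, with 345, 361 and 251 in basal and 28.0, 33.4 and 24.3 in ER- luminal cells at the 3 stages. The 2 types did not overlap (log2 difference -3.43, SE 0.30, limma adjusted p = 2e-13). ER+ luminal cells had 4.21, 5.13 and 35.6 at this region, above the ER- luminal value in pregnancy. Region merged15385 had 314, 175 and 218 in basal and 26.5, 29.0 and 28.8 in ER- luminal cells, again with no overlap (log2 difference -2.98, SE 0.31, limma adjusted p = 4.18e-11). Signal in ER+ luminal cells was 4.73, 5.99 and 17.0.

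Region merged97500 leaned furthest to ER- luminal cells, with 130, 219 and 158 there and 57.8, 45.0 and 57.2 in basal cells. All 3 ER- luminal values lay above the basal ones (log2 difference 1.62, SE 0.30, limma adjusted p = 3.46e-05). Its ER+ luminal signal was 11.0, 4.28 and 40.7. Region merged529 had 87.5, 120 and 149 in ER- luminal and 27.7, 38.7 and 52.8 in basal cells, with no overlap (log2 difference 1.57, SE 0.32, limma adjusted p = 0.000129). Its ER+ luminal signal was 4.73, 7.70 and 37.3.

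The direction of the lean between basal and ER- luminal cells mostly carried over to the held-out stage, its size less often. By the mean of puberty and adult values 264 members had at least 2-fold more signal in basal cells, 57 at least 2-fold more in ER- luminal cells, and 1338 lay between. In pregnancy basal signal was the higher at 257 of the 264 (97.3%, against 73.8% of all members and 49.3% of all regions). ER- luminal signal was the higher at 46 of the 57 (80.7%, against 26.2% of all members and 50.4% of all regions). All regions with the same lean before pregnancy were not compared. A lean of at least 2-fold was kept by 172 of the 264 (65.2%, against 19.7% of all regions). It was kept by 13 of the 57 (22.8%, against 15.4% of all regions). The median lean, basal minus ER- luminal in log2 units, went from 1.32 to 1.29 in the first class and from -1.18 to -0.43 in the second. Over all members it went from 0.25 to 0.49. Over members the lean before pregnancy and in pregnancy had a Pearson r of 0.62.

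ER+ luminal cells had similar signal in the 3 classes in pregnancy, with medians of 22.0 in the basal-leaning, 28.8 in the ER- leaning and 25.4 in the remaining members. The 4-fold margin in pregnancy was kept by 5.68%, 5.26% and 5.75% of them. Among members called higher in basal cells the median log2 difference of ER+ luminal cells in pregnancy was -0.70 from ER- luminal and -2.06 from basal cells. Among those called higher in ER- luminal cells it was -1.64 and -0.72. The calls use the pregnancy values of basal and ER- luminal cells, so the order within each pair is partly set by the class.

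**Figure D4:**
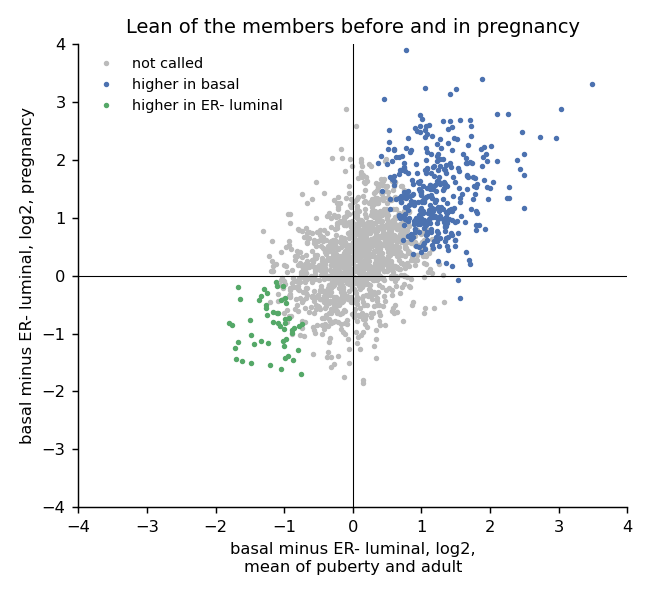
Basal minus ER- luminal signal of each member in log2 units, as the mean of puberty and adult (horizontal) and in pregnancy (vertical), coloured by the limma call over the 6 libraries of both types. The call uses all 3 stages, so colour is not independent of either axis. The 354 members called higher in basal cells lie mostly in the upper right, and the 52 called higher in ER- luminal cells in the lower left.

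Adult and puberty values were compared in basal and ER- luminal cells too, at members chosen for being open in both types at both stages. In the same fit limma called 0 members in either direction, against 0.00881% of all regions higher in adults, so nothing about the members is read from this count. At an unadjusted p under 0.05 there were 111 members (6.69%, against 4.98% of all regions), of which 103 were higher in adults. On the recovered reads edgeR and DESeq2 also called 0 members, against 0.0152% and 0.004% of all regions. Without the ER- luminal pregnancy or the basal pregnancy library limma called 4 members (0.241%), all higher in adults, against 0.0593% of all regions in each of these fits. The median log2 difference, adult minus puberty, was 0.22 over members and 0.02 over all regions.

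Pregnancy against the mean of the earlier stages, in basal and ER- luminal cells, gave 9 members higher (0.542%) and 66 lower (3.98%). Of all regions 0.502% were called higher and 1.5% lower. After quantile normalization 55 members (3.32%) were called higher and 33 (1.99%) lower, against 0.563% and 1.03% of all regions, so the direction of the larger group turned with the scaling. Members needed signal of at least 20 at the earlier stages, so a fall is partly set by the choice, and nothing is read from these shares. The 75 calls became 6 without the basal adult, 20 without the ER- luminal puberty, 25 without the ER- luminal adult, 31 without the ER- luminal pregnancy and 147 without the basal puberty library. Of all regions these fits called 0.129%, 0.686%, 1.51%, 3.37% and 4.18%, in the same order. The median log2 difference was -0.11 over members and 0.06 over all regions.

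The members that fell furthest in basal and ER- luminal cells in pregnancy no longer showed the pattern of the rule. They were ranked on that fall, which the choice of members partly sets, so the p-values of their falls are a description only. Region merged9014 had 23.0, 26.8 and 2.20 in basal and 41.6, 58.7 and 4.55 in ER- luminal cells, the last values from 1 and 3 reads. Both pregnancy values lay below all earlier ones (log2 difference -3.10, SE 0.50, limma adjusted p = 8.06e-05). The call was lost in the fit on all 9 libraries (limma adjusted p = 0.216). Its ER+ luminal signal was 1.58, 4.28 and 13.6, the highest of the 3 types in pregnancy. Region merged72304 had 49.9, 86.8 and 13.2 in basal and 155, 100.3 and 16.7 in ER- luminal cells, also without overlap (log2 difference -2.53, SE 0.37, limma adjusted p = 1.3e-05). Its ER+ luminal signal stayed at 11.0, 9.41 and 13.6.

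Region merged85936 rose most in pregnancy, from 36.4 and 31.6 to 139 in basal and from 27.2 and 54.2 to 72.8 in ER- luminal cells. The pregnancy values were the highest of each type (log2 difference 1.45, SE 0.37, limma adjusted p = 0.0236). Its call was lost without the basal adult (limma adjusted p = 0.54) or the basal pregnancy library (limma adjusted p = 0.434). Region merged106733 had 105, 118 and 220 in basal and 27.2, 36.4 and 120 in ER- luminal cells, each highest in pregnancy (log2 difference 1.44, SE 0.33, limma adjusted p = 0.00956). Its call was lost without the ER- luminal adult (limma adjusted p = 0.0602), the ER- luminal pregnancy (limma adjusted p = 0.193) or the basal adult library (limma adjusted p = 0.179). Their ER+ luminal signal was 1.05, 5.13 and 30.5 in merged85936 and 4.21, 7.70 and 40.7 in merged106733. Neither these nor the members that fell were called in every fit. Without a variance trend the limma adjusted p was 0.26 for merged9014, 0.325 for merged72304, 0.333 for merged85936 and 0.328 for merged106733, and in the model that had no cell type term it was 0.776 to 0.779.

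**Figure D5:**
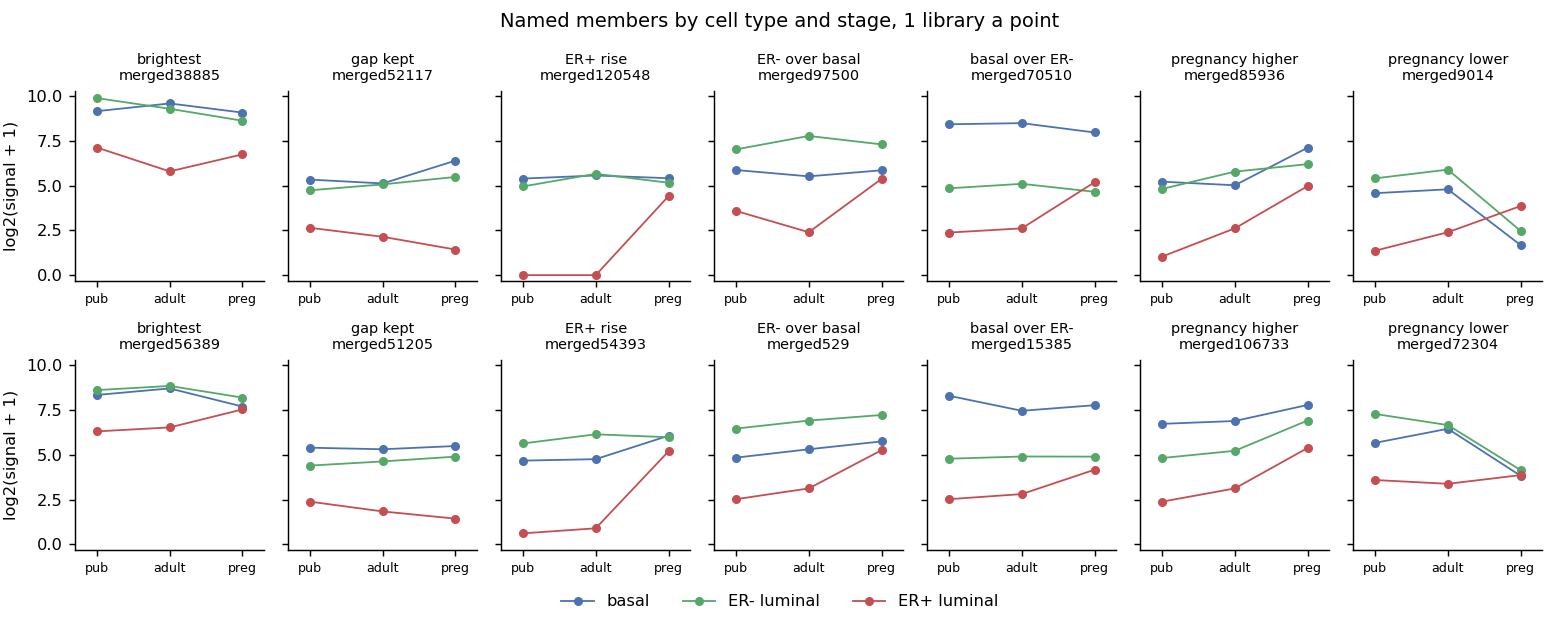
Signal of 14 named members as log2(signal + 1) at the 3 stages, with 1 point per library coloured by cell type. Columns hold, from the left, the brightest members, those with the largest gap kept, those with the largest ER+ luminal rise, and the leading members of the fits. In merged52117 and merged51205 the ER+ luminal line is lowest in pregnancy, in merged38885 it lies between its earlier values, and in the other 11 members it is highest there.

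At the limits used here, regions made by the same rule for the other cell types were far fewer. Closed in ER- luminal cells alone were 69 regions and closed in basal cells alone 199, against 1659 closed in ER+ luminal cells. The size of this excess depended on the limits. With a margin of 1 the counts were 662 and 2555, against 4067. At puberty alone they were 233 and 1587, against 2327, and in adults alone 639 and 635, against 4158. In pregnancy the closed type lay below both others at 84.1% of the 69 (31.3% of all regions) and 72.9% of the 199 regions (34.2% of all). The 4-fold margin was kept by 5.80% and 1.51%, against 1.69% and 2.3% of all regions. In the order puberty, adult and pregnancy the median signal of the closed type was 7.89, 6.69 and 13.7 in the ER- closed regions. In the basal-closed regions it was 11.9, 12.6 and 24.2. Narrower gaps in pregnancy were thus seen in all 3 sets, with medians of 0.71 in the ER- closed, 0.57 in the basal-closed and 0.90 in the ER+ closed regions, and differences between the sets were not tested.

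The members' share of all reads in regions sums the same values by library. The puberty and adult shares follow from the choice of members, and only the pregnancy shares are held out. Members took 2.18%, 2.57% and 2.94% of the reads in basal and 1.91%, 2.20% and 1.98% in ER- luminal libraries, in the order puberty, adult and pregnancy. In ER+ luminal libraries they took 0.228%, 0.186% and 1.06%. The pregnancy share in ER+ luminal cells, from 27867 reads, had a Wilson 95% interval of 1.04% to 1.07%.

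Most members, 1499 of 1659, had no other member next to them in the numbering. The next number up or down was also a member for 160 members (9.64%), a larger share than the 2.60% of all regions that had a member as a neighbour. The 160 members formed 74 pairs and 4 runs of 3. Over all regions, the profiles of neighbours in number had a mean correlation of 0.17 over the 9 libraries, against 0.01 at a distance of 100. The order behind the numbers was not given in the sources used here. In the first run of 3, from merged32895 to merged32897, ER+ luminal signal was 4.73, 15.8 and 11.0 at puberty and 20.3, 30.5 and 33.9 in pregnancy. The smallest and largest share of members in a block of 10000 numbers was 0.885% and 1.71% of regions.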

How the data were processed

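Accessible chromatin was read in 9 ATAC-seq libraries, 1 for each cell type and stage. The submitters' processing notes name MACS2 2.1.0.20151222, Picard, SAMtools and the aligner Bowtie2 2.2.6, with build GRCm38 (mm10). Peak merging and any Tn5 shift were not given in the sources used here. Per the file headers the deposited values are a normalised signal. Within 0.02 reads, 100% of values per library were whole multiples of 1 step, taken as 1 read. The labels give the molecule as RNA, while the protocol describes ATAC-seq.

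L is log2(signal + 1). Limma 3.58.1 (R 4.3.3, variance trend; 2 residual and 62.9 prior degrees of freedom) was fitted to L of 6 libraries over all regions without a filter. edgeR 4.0.16 and DESeq2 1.42.0 were run on recovered reads as alternatives, beside other pseudocounts, filters, scalings, rule limits and left-out libraries. Members, lists and tests were chosen with earlier results of these data known. Named regions are the first 2 by each fixed ranking (brightness, gap kept, ER+ rise, fitted difference per direction, distance to the threshold) and the first of the longest runs. Labels do not say whether libraries came from separate mice.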

Additional observations from a re-analysis of the deposited data

Results flagged for a closer look

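From adult to pregnancy the median member moved up in ER+ luminal cells and down in both other types, and the difference was not tested because each value comes from 1 library per stage. The medians were 2.11 log2 units (ER+ luminal), -0.16 (basal) and -0.25 (ER- luminal). From puberty to pregnancy only ER- luminal cells went the other way from ER+ luminal cells, with medians of 1.79 (ER+ luminal), -0.15 (ER- luminal) and 0.17 (basal, with 59.7% of members higher). The choice of members favours a rise in ER+ luminal cells, as given above.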

How the results depend on the processing

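The number of members follows the rule's limits. It was 1028 with a pseudocount of 4, 4067 and 326 with a margin of 1 and 3, and 2509 and 816 with a minimum of 10 and 40. In adults alone the rule chose 4158 regions and in pregnancy alone, a setting added after the data were seen, 352. The share of members at least 4-fold below both types in pregnancy was 3.50% with a pseudocount of 4, 3.34% with a margin of 1, 9.45% after quantile normalization and 4.56% at equal depth (1 draw). It was 4.64% and 3.75% for the rule at puberty or in adults alone, 25.7% against basal alone and 7.66% against ER- luminal alone. Of the basal-leaning members, 98.9% stayed higher in basal cells with a minimum of 40. Members with a neighbour in number made up 17.2% and 3.68% with a margin of 1 and 3, 13.1% and 5.64% with a minimum of 10 and 40, and 13.5% and 16.1% for the rule at puberty or in adults alone. In the ER- closed regions the share with the 4-fold margin in pregnancy was 28.6% of 7 regions with a margin of 3, 14.8% of 27 after quantile normalization and 2.15% of 233 for puberty alone. In the basal-closed regions it was 0% of 78 with a pseudocount of 4 and 5.37% of 149 after quantile normalization.

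Between ER- luminal and basal cells 125 members (7.53%, against 14.0% of all regions) were called with all 9 libraries and 75 (4.52%, against 10.5%) without a variance trend, the reverse of the reported fit (24.5% against 21.6%). With regions filtered to a mean of at least 10 it was also the reverse (27.1% against 30.6%). The shares were 21.8% against 22.0% in edgeR and 18.1% against 15.3% in DESeq2. Calls higher in basal cells were 23.6% of members against 17.0% of all regions with that filter. They were 18.1% against 11.9% in edgeR and 15.4% against 8.67% in DESeq2. With a minimum of 40 in the rule 187 of the 816 members were called, against 21.6% of all regions in the reported fit. The reported fit pairs the cell types by stage, and with no replicate block for stage 245 members were called (14.8%, against 15.1% of all regions), of which 223 were higher in basal cells (13.4%, against 9.34%). Left-out libraries gave 154 (9.28%, against 10.0% of all regions) to 391 (23.6%, against 23.1%). Without the ER- luminal or the basal puberty library the shares were 19.8% and 19.3%, against 14.4% and 14.2% of all regions. Between adult and puberty left-out libraries gave 0 to 4. For pregnancy against the earlier stages limma called 134 with all 9 libraries (131 higher and 3 lower, where ER+ luminal cells enter; 8.08%, against 6.89% of all regions). It called 0 without a variance trend (0.00721% of all regions), 0 of all regions with cell type left out, and 26 members with a pseudocount of 0.25 (1.57%, against 0.774%). At an unadjusted p under 0.05 there were 135 members without a variance trend (8.14%, against 13.0% of all regions). With cell type left out there were 95 (5.73%, against 6.41%). edgeR and DESeq2 called 34 each (2.05%, against 1.18% and 0.822% of all regions), and left-out libraries gave 6 to 147. With quantile normalization 55 of the 88 calls were higher, against 9 of 75 in the deposited values. Where no reason is given the cause was not tested. The labels do not tie libraries of a stage to the same animals. Pregnancy depth, 14 reads for the median member in ER+ luminal cells, limits what single regions can show.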
